A study of Mus musculus with 54 samples.

Results

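Of the 54232 genes counted in every library, 8 were followed here, the secreted factors Bdnf, Ntf3 and Gdnf and the receptors Ntrk2, Ntrk3, Ngfr, Gfra1 and Ret. Each was matched to 1 Ensembl identifier. They were taken as a family by gene symbol, because Bdnf is an often named target of histone deacetylase (HDAC) inhibition. The rule uses no measured value, but the genes were chosen with earlier results of these data known. Male mice received Cmpd60, a benzamide that selectively inhibits HDAC1 and HDAC2, at 22.5 mg/kg, or its vehicle of DMSO, polyethylene glycol and saline, by intraperitoneal injection once a day for 14 days. Naturally aged BL6 mice of about 20 months gave 6 Cmpd60 and 6 vehicle brains, 6 Cmpd60 and 5 vehicle kidneys, and 5 Cmpd60 and 6 vehicle hearts. The second cohort, aged 6 to 7 months, held brains of APPSWE-1349 mice on a BL6 background, which carry a human amyloid precursor protein (APP) transgene with the Swedish mutation, and of control littermates, called AD-control in the labels. It held 4 APPSWE brains with Cmpd60, 5 APPSWE brains with vehicle, 5 littermate brains with Cmpd60 and 5 littermate brains with vehicle. A further APPSWE brain is a vehicle mouse by its labels and a Cmpd60 mouse by the heading of the study's table, and entered no comparison. The promoter that drives the transgene is not given in the sources used here.

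Brain-derived neurotrophic factor (BDNF) and neurotrophin-3 (NT-3, from Ntf3) are made as precursors, released by neurons and other cells, and bind the receptor tyrosine kinases TrkB (Ntrk2) and TrkC (Ntrk3). The unrelated receptor p75NTR (Ngfr) binds all mature neurotrophins and, with sortilin, their precursors. Glial cell line-derived neurotrophic factor (GDNF) binds the membrane-anchored co-receptor GFRα1 (Gfra1), and the pair activates the kinase RET. In adult brain, BDNF from excitatory neurons acts in synaptic plasticity, Bdnf transcription follows neuronal activity through several alternative promoters, and histone acetylation at these promoters is a known layer of its control. In the periphery, GDNF and RET are best known for kidney and enteric nerve development and NT-3 for sensory and sympathetic neurons.

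The Bdnf counts could not be divided among its promoters, since reads were counted per gene. RefSeq placed 7 Bdnf start sites on the plus strand of mouse chromosome 2 (GRCm38.p6). Of the 7 windows, 2 held a searched variant of the cAMP response element, the word bound by the activity-dependent factor CREB. The 120 bases before these 2 start sites are shown, 5′ to 3′, with that word in capitals, because they are the Bdnf control regions through which neuronal activity is best known to act.

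Bdnf, chr2:109692316-109692435: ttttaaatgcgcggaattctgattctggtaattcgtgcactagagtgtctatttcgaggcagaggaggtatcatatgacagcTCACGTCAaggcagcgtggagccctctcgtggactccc

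Bdnf, chr2:109674580-109674699: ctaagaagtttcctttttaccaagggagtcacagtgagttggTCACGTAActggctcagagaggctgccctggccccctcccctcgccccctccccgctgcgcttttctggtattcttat

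TCACGTCA ended 30 bases and TCACGTAA 70 bases before the start site. On either strand, the former was found in 0.35% and the latter in 0.146% of 32851 mouse promoters over the 250 bases before each start. The palindromic word TGACGTCA, found in 1.55% of them, was in none of the 14 windows listed for the 6 genes Bdnf, Ntf3, Ntrk2, Ngfr, Gdnf and Gfra1. These words alone were searched for and were fixed beforehand, so their shares do not test Bdnf against other promoters. The matches describe the letters only, and the files hold no binding or acetylation data.

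Libraries held 23584609 to 57430113 counts on genes, so that a count of 0 allowed at most 0.127 CPM (counts scaled to the library's total) in the smallest of them, for counting error only. Neuronal Snap25 was at 2283 to 2623 CPM in the vehicle brains of aged mice, proximal tubule Slc34a1 at 3169 to 4326 CPM in the vehicle kidneys and cardiac Myh6 at 27981 to 33752 CPM in the vehicle hearts, so each tissue carried its own markers. In the APPSWE cohort, 5 libraries detected 15044 to 16577 genes against 18122 to 24821 in the others, namely 2 APPSWE vehicle libraries and 1 of each of the other 3 groups. No cause of this was tested. Results of this cohort are therefore also given over the other 14 libraries of the groups, 3 per APPSWE group and 4 per littermate group. Counts on mouse App did not separate the genotypes, with 2038 to 2384 CPM in the APPSWE and 1966 to 2275 CPM in the littermate libraries, so the genotype labels could not be checked on these counts. Since nothing states that each brain of this cohort came from a separate mouse, p-values measure the spread between these libraries.

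In the aged brain, Cmpd60 was compared with vehicle to ask whether the family responds to HDAC1/2 inhibition in old animals. At an adjusted p under 0.05 in edgeR's quasi-likelihood test over all genes, 0 of the 8 genes were called, beside 0.0205% of all 24438 genes tested. At an unadjusted p under 0.05, 1 of the 8 passed, Ntf3, beside 13.8% of all genes. Bdnf was the flattest of the secreted factors, with a lowest, median and highest level of 22.8, 26.8 and 29.7 CPM with Cmpd60 and of 24.8, 25.6 and 28.7 CPM with vehicle. The Cmpd60 brains spanned the whole vehicle range and extended past it at both ends. The log2 fold change of Bdnf was 0.02 ± 0.07 (SE), with a 95% interval from -0.13 to 0.17 (adjusted p = 0.934; exact two-sided permutation p = 0.749).

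Ntf3, the TrkC ligand, was a low gene in the aged brain. Its lowest, median and highest levels were 1.03, 1.37 and 1.78 CPM with Cmpd60 and 0.679, 1.09 and 1.29 CPM with vehicle. In 4 of the 6 Cmpd60 brains it lay above every vehicle brain, and the other 2 overlapped with them. The log2 fold change was 0.44 ± 0.19 (95% interval 0.03 to 0.84; unadjusted p = 0.0377, adjusted p = 0.336 in edgeR, and exact permutation p = 0.039). Its unadjusted p stayed under 0.05 in 11 of 18 alternative fits, with a fold change from 0.32 to 0.51. Gdnf was lower still, at 0.382, 0.708 and 0.877 CPM with Cmpd60 and 0.599, 0.884 and 1.14 CPM with vehicle. Its fold change was -0.42 ± 0.25 on the log2 scale (95% interval -0.95 to 0.11), which did not pass the test (unadjusted p = 0.114, adjusted p = 0.482 in edgeR).

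Among the receptors in the aged brain, Ntrk2 and Ntrk3 were the most abundant. Ntrk2 ranged from 631 to 818 CPM with Cmpd60 and from 611 to 712 CPM with vehicle, and its log2 fold change was 0.04 ± 0.06 (95% interval -0.09 to 0.17). The counts add up all Ntrk2 transcripts, so full-length TrkB and the kinase-lacking short form, which astrocytes make, were not told apart. Ntrk3 ranged from 217 to 277 CPM with Cmpd60 and from 182 to 255 CPM with vehicle, a log2 fold change of 0.12 ± 0.07 (95% interval -0.03 to 0.27). Ngfr, which cholinergic neurons of the basal forebrain express, ranged from 4.02 to 7.06 CPM with Cmpd60 and from 5.62 to 8.49 CPM with vehicle (log2 fold change -0.26 ± 0.15). Gfra1 was level at 43.9 to 56.8 CPM with Cmpd60 and 46.8 to 53.3 CPM with vehicle (log2 fold change -0.02 ± 0.07, 95% interval -0.16 to 0.13). Ret ranged from 18.9 to 38.1 CPM with Cmpd60 and from 25.5 to 39.0 CPM with vehicle (log2 fold change -0.23 ± 0.14). All 5 receptors overlapped between the groups, and their unadjusted p in edgeR lay between 0.102 and 0.814.

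**Figure D1:**
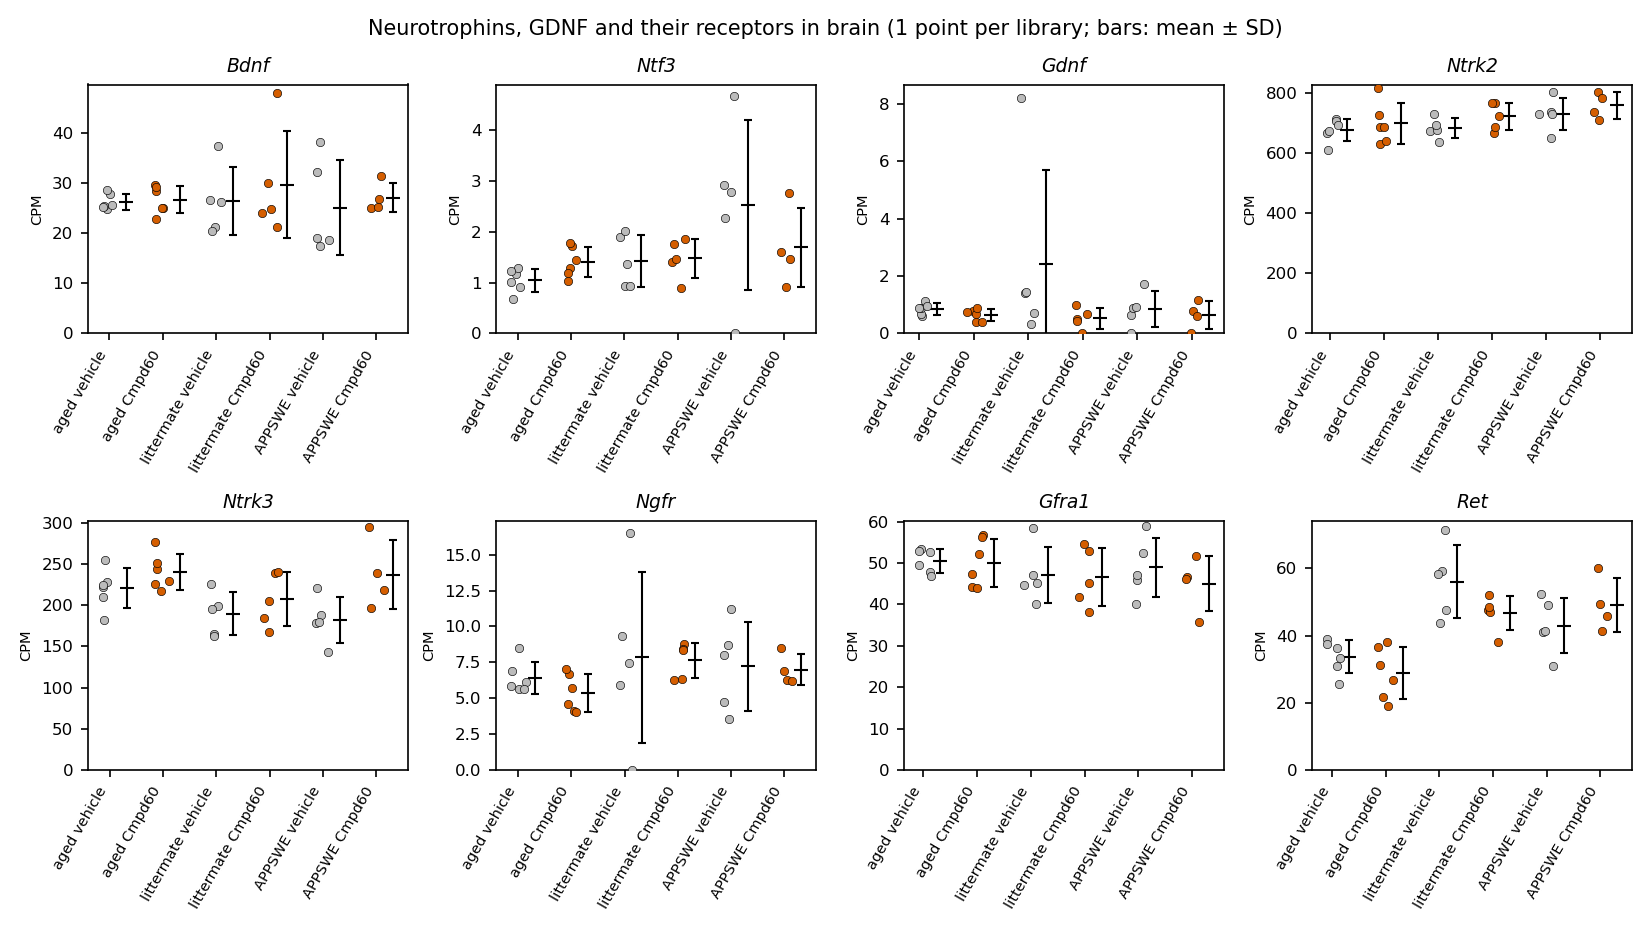
Level of each of the 8 genes in brain, in CPM from 0 upward, with 1 point per library, grey for vehicle and orange for Cmpd60, and the mean ± SD beside each group (bars end at 0 where the SD exceeds the mean). Bdnf lay between 22.8 and 29.7 CPM in all aged brains and spread from 17.4 to 48.1 CPM in the APPSWE cohort, and the single Gdnf point at 8.22 CPM is a littermate vehicle library with few detected genes.

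Several sums of cell type and region markers differed in range between the treatments, with overlap, and their part in these values was not tested. Summed over 5 markers each, neurons were at 5287 to 6677 CPM with Cmpd60 and 4907 to 5677 CPM with vehicle, and excitatory cortex and hippocampus at 926 to 1338 against 830 to 991 CPM. Astrocyte markers were at 3155 to 3825 against 2955 to 3314 CPM, and endothelial and mural markers at 281 to 344 against 253 to 295 CPM. Oligodendrocyte markers, at 4685 to 6812 against 5474 to 6628 CPM, had a lower median with Cmpd60. The 3 cholinergic markers were at 14.8 to 50.0 against 18.3 to 27.8 CPM. The cerebellum markers were at 245 to 549 against 427 to 699 CPM, and the 3 thalamus markers at 70.3 to 145.7 against 121 to 236 CPM. The 4 dopaminergic midbrain markers were at 54.6 to 126 against 63.7 to 118 CPM, with medians of 65.2 against 82.0 CPM. Choroid plexus markers were at 224 to 944 against 541 to 766 CPM, with medians of 519 against 705 CPM. Striatum markers, at 311 to 532 against 288 to 476 CPM, and hypothalamus markers, at 15.9 to 115 against 25.7 to 68.1 CPM, had closer medians, 379 against 364 and 41.2 against 45.5 CPM. In whole tissue, fewer cells of a type and less RNA per cell cannot be told apart. The Cmpd60 brains were also sequenced more deeply, with a median of 38855584 against 28188597 counts.

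In the aged kidney, no member passed the test of Cmpd60 against vehicle, with 0 of 8 at an adjusted p under 0.05 beside 0.3% of 20698 genes, and 0 of 8 at an unadjusted p under 0.05 beside 11.3%. Bdnf ranged from 5.46 to 7.78 CPM with Cmpd60 and from 4.32 to 7.95 CPM with vehicle (log2 fold change 0.17 ± 0.17, 95% interval -0.20 to 0.54). Gfra1 ranged from 4.52 to 11.2 CPM with Cmpd60 and from 5.00 to 7.89 CPM with vehicle (log2 fold change 0.34 ± 0.22, 95% interval -0.12 to 0.79). Ret was close to the detection limit, at 0.386 to 0.877 CPM in the vehicle kidneys and at 0 to 0.711 CPM in the Cmpd60 kidneys, where libraries 53 and 55 held no Ret count. These 2 detected 19385 and 18512 genes against 21832 to 22724 in the other Cmpd60 kidneys, and the part of this in the Ret values was not tested. Its log2 fold change of -1.06 had a 95% interval from -2.72 to 0.61 (adjusted p = 0.646 in edgeR, exact permutation p = 0.0758). Library 55 also stood low for Ntrk2, at 0.167 CPM against 2.54 to 5.18 CPM in the other Cmpd60 kidneys, and summed proximal tubule markers spread from 2993 to 8029 CPM with Cmpd60 against 6097 to 7608 CPM with vehicle. The kidney groups follow the sample titles, and the treatment field of these samples says the reverse, in which case every kidney difference would carry the other sign.

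In the aged heart, 0 of the 8 genes were called at an adjusted p under 0.05, beside 1.18% of 19452 genes, and 1 of 8, Gfra1, had an unadjusted p under 0.05, beside 13.5%. Gfra1, the GDNF co-receptor, was at 9.995, 10.4, 15.4, 12.7 and 8.43 CPM in the 5 Cmpd60 hearts and had a lowest, median and highest level of 12.2, 15.2 and 20.0 CPM in the vehicle hearts. In 3 of the 5 Cmpd60 hearts it lay below every vehicle heart. The log2 fold change was -0.45 ± 0.15 (95% interval -0.76 to -0.14; unadjusted p = 0.00728, adjusted p = 0.162 in edgeR, exact permutation p = 0.0281). Over 17 alternative fits it kept its sign, from -0.59 to -0.36, with an adjusted p from 0.0554 to 0.353. Markers of Schwann cells, which use GFRα1, summed over 5 genes to 53.0 to 62.1 CPM with Cmpd60 and 52.7 to 66.8 CPM with vehicle, and 1 of the 5, Cdh19, was at 6.48 to 10.4 against 8.74 to 11.4 CPM. The part of such cells in the Gfra1 values was not tested.

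The other members in the heart spread widely within groups. Bdnf ranged from 7.99 to 9.61 CPM with Cmpd60 and from 6.33 to 12.1 CPM with vehicle (log2 fold change 0.04 ± 0.15, 95% interval -0.27 to 0.35). Ret, at 4.19 to 6.92 CPM with Cmpd60 and 4.37 to 5.90 CPM with vehicle, had a log2 fold change of 0.12 ± 0.15. Ntrk3 varied over a wide range among vehicle hearts, from 0.348 to 5.98 CPM, and among Cmpd60 hearts from 0.561 to 4.05 CPM. Ntrk2 ranged from 1.64 to 6.23 CPM with Cmpd60 and from 2.12 to 10.4 CPM with vehicle (log2 fold change -0.61 ± 0.39).

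The difference between kidney and heart in the Cmpd60 response was tested in a joint fit of the 34 aged libraries, a comparison added after the data were seen. For Gfra1 the response was 0.77 ± 0.23 higher on the log2 scale in kidney than in heart (95% interval 0.29 to 1.25; unadjusted p = 0.00234, adjusted p = 0.156 in edgeR). For Ret it was lower in kidney than in heart (difference -1.19 ± 0.49; unadjusted p = 0.0217, adjusted p = 0.327). With the kidney groups exchanged, the Gfra1 difference was 0.09 ± 0.23 (unadjusted p = 0.691) and the Ret difference 0.91 ± 0.49 (unadjusted p = 0.0728), so both rest on the titles. For Bdnf the response in brain minus that in kidney was -0.12 ± 0.19 (95% interval -0.52 to 0.27), and in brain minus heart the 95% interval ran from -0.39 to 0.39.

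**Figure D2:**
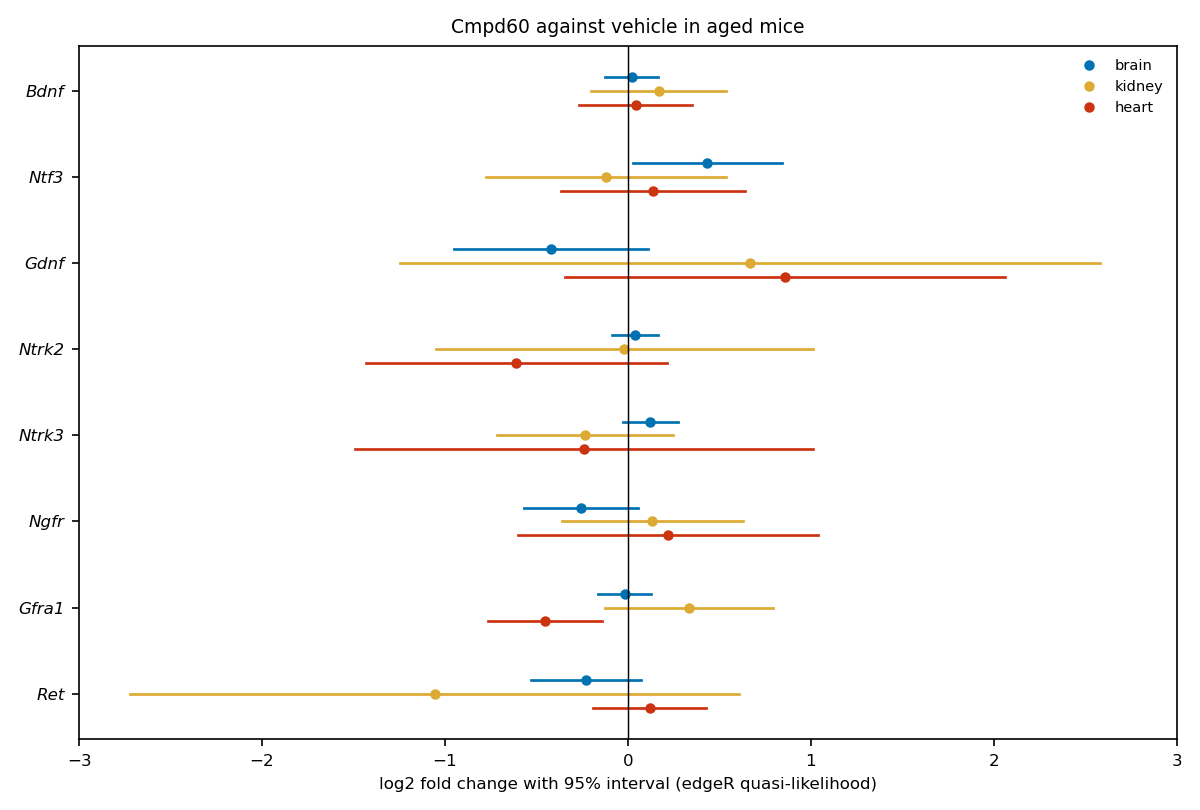
Log2 fold change of Cmpd60 against vehicle with its 95% interval for each gene in aged brain (blue), kidney (yellow) and heart (red). The Bdnf interval in brain runs from -0.13 to 0.17, and the intervals that leave out 0 are those of Ntf3 in brain and Gfra1 in heart, neither of which passed the adjusted test.

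The APPSWE cohort was used to ask whether the transgene or Cmpd60 moved these genes in a dementia model. At an adjusted p under 0.05, 0 of the 8 genes were called for Cmpd60 in APPSWE mice, beside 0% of 23194 genes. The same held for Cmpd60 in littermates, beside 0%, for genotype under vehicle, beside 0.00862%, for genotype under Cmpd60, beside 0%, and for the interaction of genotype and Cmpd60, beside 0%. At an unadjusted p under 0.05, 1 of 8 passed for Cmpd60 in APPSWE mice (Ntrk3, beside 9.46% of all genes) and 0 of 8 in littermates (beside 3.67%). For genotype, 1 of 8 passed under vehicle (Ret, beside 8.67%), 0 of 8 under Cmpd60 (beside 1.34%) and 1 of 8 in the interaction (Ret, beside 5.09%). Comparisons within this cohort share groups, so they are not separate evidence.

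Bdnf scattered far more in this cohort than in the aged brain. It was at 18.6, 38.3, 19.0, 32.2 and 17.4 CPM in the APPSWE vehicle libraries and at 31.5, 25.1, 25.3 and 26.8 CPM in the APPSWE Cmpd60 libraries. The vehicle values fell on both sides of the Cmpd60 values. Littermates were at 21.3, 26.3, 26.7, 20.4 and 37.4 CPM with vehicle and at 48.1, 24.9, 30.1, 21.4 and 24.1 CPM with Cmpd60. The highest value of each littermate group came from its library with few detected genes.

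The log2 fold change of Bdnf with Cmpd60 was 0.11 ± 0.26 in APPSWE mice (95% interval -0.41 to 0.64) and 0.17 ± 0.24 in littermates (95% interval -0.32 to 0.67). Without the 5 libraries with few genes it was -0.22 in APPSWE mice (95% interval -0.61 to 0.18) and 0.09 in littermates (95% interval -0.26 to 0.43). The genotype difference under vehicle was -0.07 ± 0.24, and 0.33 without these libraries (95% interval -0.03 to 0.70, unadjusted p = 0.0732 in edgeR). The sign of both Bdnf differences against APPSWE vehicle mice thus turned with those libraries, and neither passed the test with or without them.

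Ntrk3 (TrkC) was at 179, 221, 189, 180 and 143 CPM in the APPSWE vehicle and at 196, 295, 218 and 239 CPM in the APPSWE Cmpd60 libraries. In 2 of the 4 Cmpd60 libraries Ntrk3 lay above all 5 vehicle libraries, and the other 2 lay within their range. The log2 fold change was 0.38 ± 0.13 (95% interval 0.11 to 0.65; unadjusted p = 0.00741, adjusted p = 0.444 in edgeR, exact permutation p = 0.0397), and 0.35 without the 5 libraries with few genes (unadjusted p = 0.0161). Its unadjusted p was under 0.05 in 29 of 30 alternative fits. In littermates Ntrk3 ranged from 163 to 225 CPM with vehicle and from 168 to 241 CPM with Cmpd60, and the difference between the responses of the genotypes was 0.25 ± 0.18 (unadjusted p = 0.181). Ntrk2 (TrkB) was the steadiest member, from 637 to 804 CPM over the 4 groups, with log2 differences between 0.06 and 0.10 in size and none of them past the test.

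Ret was at 48.9, 41.1, 41.2, 52.2 and 30.97 CPM in APPSWE vehicle mice and at 59.2, 43.7, 47.5, 58.4 and 71.4 CPM in littermate vehicle mice. The highest littermate value and the lowest APPSWE value both came from libraries that detected few genes. The log2 difference was -0.38 ± 0.15 (unadjusted p = 0.0205, adjusted p = 0.509 in edgeR, exact permutation p = 0.0714). It was -0.22 without the 5 libraries (95% interval -0.47 to 0.03, unadjusted p = 0.0852). The interaction for Ret fell from 0.46 ± 0.22 (unadjusted p = 0.0496) to 0.12 ± 0.17 without them (unadjusted p = 0.494). Gfra1, its co-receptor, ranged from 35.7 to 59.0 CPM over the 4 groups, with all 4 log2 differences between -0.12 and 0.06.

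Gdnf, Ntf3 and Ngfr were low, and single libraries set their group means. Gdnf was at 8.22 CPM (205 counts) in the littermate vehicle library with few detected genes, against 0.311 to 1.43 CPM in the other 4 of its group, and had no count in 3 of the other 4 libraries of that kind. Ngfr had no count in the same littermate vehicle library, while the others of its group were at 5.95 to 16.5 CPM. Ntf3 had no count in 1 APPSWE vehicle library with few detected genes and was at 2.27 to 4.66 CPM in the other 4 of that group, against 0.923 to 2.01 CPM in littermate vehicle brains. The intervals of these 3 genes reached past 1 on the log2 scale in either direction for all 4 differences, except for Gdnf with Cmpd60 in littermates, whose 95% interval ran from -4.84 to 0.42. Over all libraries, Ntf3 with Cmpd60 in APPSWE mice was at -0.58 ± 0.97 (unadjusted p = 0.556 in edgeR). Without the 5 libraries it was at -1.004 ± 0.45 (unadjusted p = 0.0363, adjusted p = 0.441 in edgeR). In that fit Ntf3 and Ntrk3 made 2 of 8 members at an unadjusted p under 0.05, beside 10.8% of all genes. Over 30 alternative fits Ntf3 ran from -1.004 to 1.24. For genotype under vehicle, Ngfr was at -0.11 ± 0.65 over all libraries (unadjusted p = 0.87 in edgeR). Without the 5 libraries Ngfr was at -0.85 ± 0.31 (unadjusted p = 0.0111, adjusted p = 0.418), the 1 of 8 at that level, beside 10.1%. Its value ran from -0.85 to 1.32 over 30 alternative fits.

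**Figure D3:**
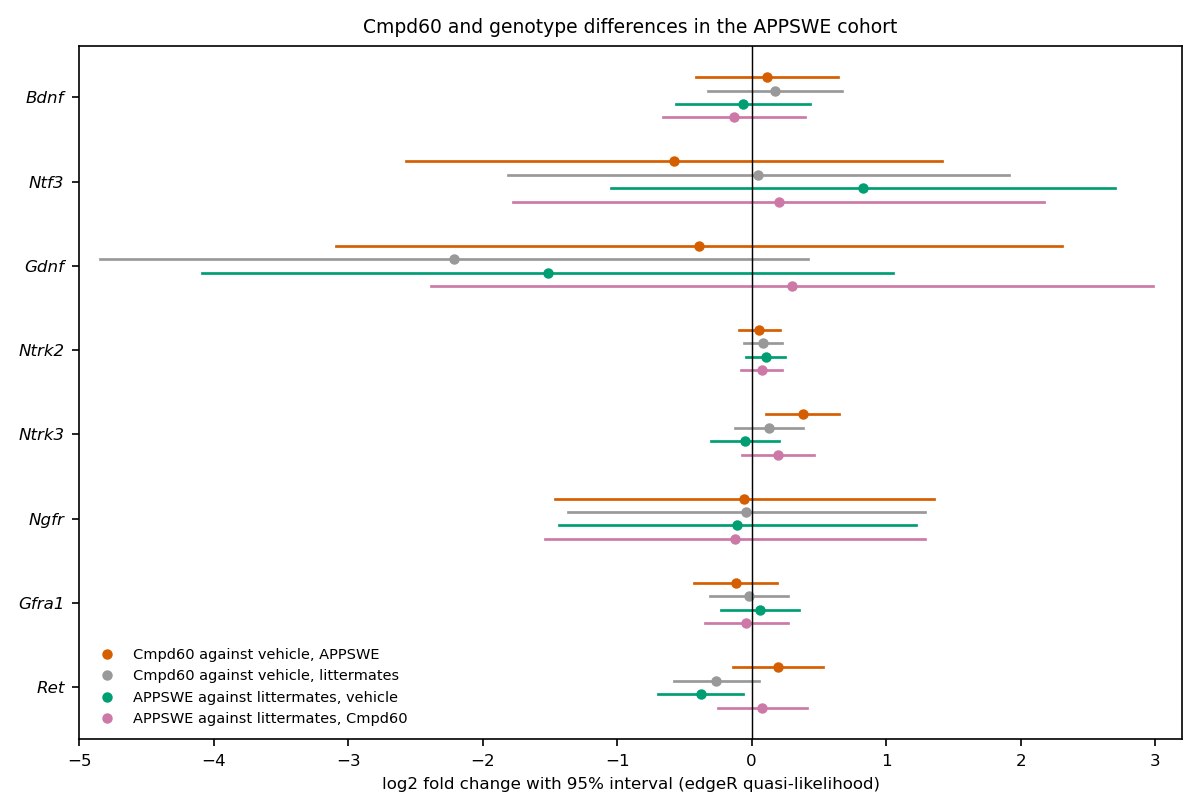
Log2 fold change with its 95% interval for each gene in the APPSWE cohort, for Cmpd60 against vehicle in APPSWE mice (orange) and littermates (grey) and for APPSWE against littermates under vehicle (green) and under Cmpd60 (pink). The intervals are narrow for Ntrk2 and wide for Gdnf, Ntf3 and Ngfr, and those that leave out 0 belong to Ntrk3 (0.11 to 0.65) and Ret (-0.69 to -0.06).

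Levels between genes and tissues were compared in aged vehicle mice per kilobase of exon, after joint scaling of the 34 aged libraries. In brain the 2 Trk receptors led, Ntrk2 at 38.5 ± 2.13 and Ntrk3 at 36.0 ± 3.77 CPM per kb (SD, n = 6), with overlapping libraries. Gfra1 followed at 7.91 ± 0.42, Ret at 3.94 ± 0.58 and Bdnf at 3.85 ± 0.24 CPM per kb, the last 2 again overlapping. Ngfr was at 1.60 ± 0.28, Ntf3 at 0.628 ± 0.13 and Gdnf at 0.209 ± 0.049 CPM per kb. In every aged vehicle brain Gfra1 and Ret exceeded Gdnf and Ntrk2 exceeded Bdnf per kilobase, while Ngfr, at 1.40 to 2.12, lay below Bdnf, at 3.64 to 4.21 CPM per kb. These levels depend on the lengths used, which merge the exons of all transcripts, 15094 bases for Ntrk2 and 5241 for Ntrk3. Before division by length, Ntrk2 was at 581 and Ntrk3 at 189 CPM.

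Between tissues, all 8 genes differed between brain and kidney at an adjusted p under 0.05, beside 72.5% of 27105 genes, 7 of 8 between brain and heart, beside 72.1%, and 5 of 8 between kidney and heart, beside 56.7%. With calls this common, the sizes carry the description. Ntrk2 was higher in brain by 7.46 ± 0.41 against kidney and 6.55 ± 0.36 against heart on the log2 scale, and Ntrk3 by 5.26 ± 0.37 and 5.89 ± 0.36. Ret ordered brain above heart above kidney, 2.11 ± 0.23 higher in brain than in heart and 3.50 ± 0.32 lower in kidney than in heart (difference -3.50). Bdnf kept the same order, with 22.5 ± 1.39 CPM in brain, 11.01 ± 2.97 CPM in heart and 5.33 ± 1.35 CPM in kidney (SD, n = 6, 6 and 5), and the 3 groups of libraries did not overlap. Gfra1 did so as well, at 43.3 ± 2.32, 19.5 ± 2.96 and 6.33 ± 1.17 CPM. Of all genes, 59.6% did not overlap between brain and kidney, 55.2% between brain and heart and 41.5% between kidney and heart. Outside the brain the Trk receptors were low, Ntrk2 at 6.19 ± 3.61 CPM in heart and 3.21 ± 0.912 CPM in kidney (kidney minus heart -0.91 ± 0.36, adjusted p = 0.0327) and Ntrk3 at 3.22 ± 2.67 and 4.75 ± 1.06 CPM (0.62 ± 0.37, adjusted p = 0.155). Without heart library 62, the former did not pass (-0.59, adjusted p = 0.159) and the latter did (1.03, adjusted p = 0.0159). The Ntrk2 call was also lost without heart library 64 or kidney library 46, 47 or 49, with an adjusted p from 0.0505 to 0.0824.

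Ntf3 alone was lowest in brain, at 0.896 ± 0.191 CPM, with 1.54 ± 0.742 CPM in kidney and 3.07 ± 0.971 CPM in heart. The log2 difference of brain against heart was -1.81 ± 0.26 (adjusted p = 9.78e-08 in edgeR) and against kidney -0.84 ± 0.27 (adjusted p = 0.00522), and the latter did not pass without kidney library 49 (-0.50, adjusted p = 0.0828). Ngfr was 0.82 ± 0.29 higher in brain than in kidney and 1.16 ± 0.28 higher than in heart, and kidney and heart did not differ beyond their spread (0.35 ± 0.30, adjusted p = 0.339). Gdnf was under 1 CPM in each tissue, at 0.732 ± 0.170 CPM in brain, 0.332 ± 0.185 CPM in heart and 0.133 ± 0.080 CPM in kidney. Neither brain against heart (adjusted p = 0.0513) nor kidney against heart (adjusted p = 0.0611) passed for Gdnf. The former passed without brain library 27 or heart library 64 or 67 (adjusted p from 0.0307 to 0.0479), and the latter without heart library 66 (-1.62, adjusted p = 0.0192) or kidney library 47 (-1.59, adjusted p = 0.0457). The labels do not tie tissues to mice, so the tissues were treated as separate mice.

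**Figure D4:**
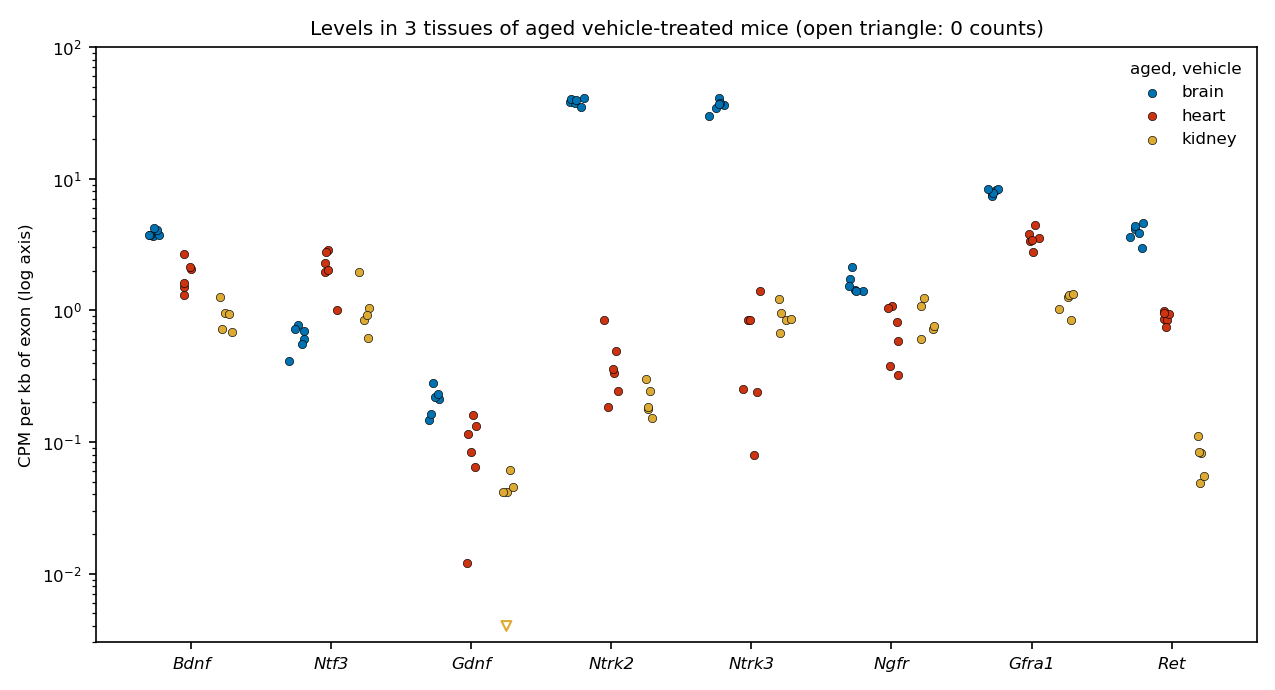
Level of each gene in the aged vehicle libraries, in CPM per kilobase of exon on a log axis, 1 point per library, with brain in blue, heart in red and kidney in yellow, and an open triangle for a library with 0 counts. Ntrk2 and Ntrk3 in brain stand above all other values, at means of 38.5 and 36.0, and Ntf3 is the gene whose brain values lie below those of heart.

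The genes around the family were read from 6 lists. In the aged brain, 0 genes of any list passed the adjusted test. Of 8 other neurotrophin ligands and receptors, 6 had a higher and 2 a lower value with Cmpd60, and 0 had an unadjusted p under 0.05. Of the 7 tested among 9 other GDNF family ligands and co-receptors, 3 were higher and 4 lower, and 0 reached that level. Of 13 genes for processing and release of pro-neurotrophins 1 did and of 23 adapters and signalling genes 2 did, shares below the 13.8% of all genes. Among these adapters was Shc3, a neuronal Trk adapter (log2 fold change -0.27 ± 0.09, unadjusted p = 0.0084, adjusted p = 0.219).

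Of 16 regulators of Bdnf transcription, 3 reached an unadjusted p under 0.05 in the aged brain, against 13.8% of all genes. Crtc1, the CREB coactivator, was at 176 to 211 CPM with Cmpd60 and at 164 to 175 CPM with vehicle. Its groups did not overlap, beside 0.925% of all genes (log2 fold change 0.16 ± 0.05, unadjusted p = 0.00323, adjusted p = 0.17 in edgeR). Sin3a, a scaffold of an HDAC1/2 complex, was at 37.5 to 42.9 against 42.1 to 47.9 CPM (log2 fold change -0.16 ± 0.05, adjusted p = 0.186).

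The 17 genes induced by BDNF or neuronal activity had the largest share of low p-values of the 6 lists in the aged brain. There 13 were higher and 4 lower with Cmpd60, 8 and 1 of them at an unadjusted p under 0.05, beside 13.8% of all genes. The median log2 fold change was 0.15 beside 0.01 over all genes. Fosb was at 9.18 to 11.8 CPM with Cmpd60 against 8.03 to 10.1 CPM with vehicle (log2 fold change 0.32 ± 0.08, adjusted p = 0.132) and Junb at 37.1 to 62.3 against 31.7 to 42.6 CPM (0.41 ± 0.12, adjusted p = 0.153), both immediate early transcription factors. Neuron, astrocyte and endothelial markers were higher in the same libraries, with overlap, as given above, and their part in these values was not tested. Beside these genes, Bdnf itself differed by 0.02.

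The activity genes were also counted in the APPSWE cohort. With Cmpd60 in APPSWE mice, 13 of the 17 were lower and 4 higher, 4 of the lower ones at an unadjusted p under 0.05, beside 9.46% of all genes, with a median of -0.27 beside 0.03 over all genes. Without the 5 libraries with few genes, 16 of the 17 were lower and 1 higher, 6 of the 17 passed that level, beside 10.8% of all genes, and the median was -0.31. Bdnf itself was at 0.11 over all libraries and at -0.22 over these. Arc, a synaptic immediate early gene, was at 50.0 to 95.8 CPM with Cmpd60 and at 106 to 191 CPM with vehicle. Its groups did not overlap, beside 2.32% of all genes (log2 fold change -0.98 ± 0.21, unadjusted p = 9.1e-05, adjusted p = 0.429 in edgeR). Fos was at 9.005 to 16.2 against 18.5 to 26.9 CPM (log2 fold change -0.86 ± 0.29, adjusted p = 0.444).

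For genotype under vehicle, which uses the same APPSWE vehicle libraries, 15 of the 17 were higher and 2 lower, 3 of them at an unadjusted p under 0.05, beside 8.67% of all genes, with a median of 0.19 beside -0.01. Without the 5 libraries 16 were higher and 1 lower, 6 of the 17 at that level, beside 10.1%, with a median of 0.31, and Bdnf was at 0.33. Under Cmpd60 the genotype difference gave 6 higher and 11 lower, 2 of them at that level, beside 1.34%, and 5 higher and 12 lower without the 5 libraries, 5 of them at that level, beside 1.54%. Arc was at 60.5 to 136 CPM in littermate vehicle brains (log2 difference 0.78 ± 0.20, unadjusted p = 0.000527, adjusted p = 0.509). In littermates Cmpd60 gave 10 higher and 7 lower activity genes, 0 of them at an unadjusted p under 0.05, beside 3.67%. For the interaction, 5 activity genes were higher and 12 lower, 4 of the lower ones at an unadjusted p under 0.05, beside 5.09% of all genes. Without the 5 libraries, 1 was higher and 16 lower, 7 of the 17 at that level, beside 5.37%. The interaction for Arc was -1.15 ± 0.29 (unadjusted p = 0.000466, adjusted p = 0.944) and that for Dusp1, an inducible phosphatase of MAP kinases, was -0.89 ± 0.31 (adjusted p = 0.944). With Cmpd60 in APPSWE mice, 7 of 13 processing and release genes were higher and 6 lower. Of these, 2 lower ones had an unadjusted p under 0.05, beside 9.46% of all genes. At that level were also 3 of 16 regulators, each higher, and 0 of 23 adapters, 6 GDNF family genes and 8 other neurotrophin genes. Plat encodes the protease that makes plasmin from plasminogen, and plasmin converts pro-BDNF. Plat was at 29.6 to 47.5 CPM with Cmpd60 and at 48.8 to 77.0 CPM with vehicle in APPSWE mice (log2 fold change -0.56 ± 0.18, adjusted p = 0.444).

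In the peripheral tissues, 0 genes of the 6 lists passed the adjusted test. In kidney, 4 of 15 activity genes (3 higher, 1 lower), 3 of 21 adapters (2 higher, 1 lower), 1 of 16 regulators, 1 of 7 GDNF family genes and 0 of both other lists had an unadjusted p under 0.05, beside 11.3% of all genes. The heart counts were 3 of 15 activity genes (3 higher), 4 of 12 processing and release genes (2 higher, 2 lower) and 4 of 16 regulators (4 lower). They were 2 of 23 adapters (2 lower), 1 of 7 GDNF family genes and 1 of 7 other neurotrophin genes (each lower), beside 13.5% of all genes. In heart, Junb came closest, at 14.3 to 34.0 CPM with Cmpd60 and 11.2 to 17.6 CPM with vehicle (log2 fold change 0.70 ± 0.17, unadjusted p = 0.000938, adjusted p = 0.0619), followed by Plat, at 31.5 to 46.8 against 24.9 to 31.8 CPM (0.37 ± 0.10, adjusted p = 0.0852), and Egr3, at 1.58 to 3.81 against 0.671 to 1.36 CPM (1.01 ± 0.28, adjusted p = 0.0929). Mef2d, an activity-regulated transcription factor, was at 153 to 176 CPM with Cmpd60 and 177 to 202 CPM with vehicle (-0.19 ± 0.06, adjusted p = 0.13). Rtn4r, a co-receptor partner of p75NTR, was at 1.70 to 3.05 against 2.20 to 5.31 CPM in heart (-0.64 ± 0.21, adjusted p = 0.18).

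The genes whose log2 CPM most resembled a member over the 12 aged brain libraries were picked from 14395 genes, so high correlations arise by selection, and the second cohort, with 20 libraries, gives the same pair where it was not selected. For Bdnf these were Nr3c2, the mineralocorticoid receptor (Pearson r = 0.92, and 0.66 in the second cohort), Stim2 (0.87 and 0.54) and Glyctk (0.84 and 0.01). For Ntrk2 they were Ncoa1 (0.97 and -0.01), Stox2 (0.96 and 0.66) and Itgav (0.96 and 0.43), and for Ntrk3 Lyst (0.96 and 0.44), Huwe1 (0.95 and 0.58) and Snapc3 (0.95 and -0.09). For Ret they were Ifi35 (0.92 and -0.42), Klk6 (0.90 and 0.67) and Tubb4a (0.88 and 0.10). For Gfra1 they were Hdac6 (0.87 and 0.43), Ecd (0.86 and -0.06) and Zfp653 (0.85 and 0.58). For Ntf3 they were Rassf9 (0.88 and 0.04), 9930111J21Rik2 (0.86 and 0.48) and Flnc (0.86 and 0.05), and for Ngfr Msx2 (0.89 and 0.43), Tmpo (0.88 and 0.00) and Gm10069 (0.88 and -0.35). None of these 21 genes kept a correlation of that size in the second cohort, where the highest was 0.67. Among the members themselves, Ntrk2 and Ntrk3 moved together over the aged brain libraries (r = 0.76) and over the second cohort (r = 0.52), while Gfra1 and Ret did so in the former (r = 0.65) and not in the latter (r = -0.02). Depth and sums of region markers differed between the aged brain libraries, and their part in these correlations was not tested. The 20 libraries of the second cohort included the APPSWE brain of unclear treatment and the 5 libraries with few detected genes. The part of those libraries in the correlations was not tested either. The values describe the libraries only.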

How the data were processed

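RNA of mouse brain, kidney and heart was sequenced in 54 libraries. Per the labels and the study's methods, the authors trimmed reads with Trimmomatic 0.32, aligned them with HISAT2 2.1.0 and counted reads of a strand-marking kit per Ensembl gene with HTSeq 0.11.0, and deposited raw counts without normalization. The genome build is not given in the sources used here. The 5 summary lines per file (15.4% to 22.1% of reads) were left out of library sizes. Symbols were matched for 32651 of the identifiers.

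Counts were scaled by TMM and tested with edgeR 4.0.16 (quasi-likelihood, R 4.3.3) over genes that exceeded 2 counts in 3 or more libraries, p-values being adjusted over all genes after Benjamini and Hochberg, and calls made at an adjusted p under 0.05. Each aged tissue was fitted alone, the 4 groups of the APPSWE cohort together, and the 34 aged libraries together for tissues. The authors' own test was limma-voom, used here as an alternative. Exact two-sided permutation tests used log2(CPM + 0.5). Exon lengths for CPM per kb are merged exons of GENCODE M1, used for length only, and likeness used log2 CPM with a prior count of 2. Alternatives were limma-voom 3.58.1, with and without quality weights, DESeq2 1.42.0, RLE size factors, no filter, a filter at 10 counts, genes detected as a covariate, each library left out, the APPSWE brain of unclear treatment in either group, and only the 2 groups compared. The fits without the 5 libraries with few detected genes, those with a vehicle library left out between tissues, and the differences of the Cmpd60 response between tissues were added after seeing the data. On simulated counts with 200 genes changed by a fold of 2, the test recovered 90.5% in aged brain (23751 genes) and 41.5% for Cmpd60 in APPSWE mice (22262 genes). In aged kidney it recovered 73.5% (20153 genes) and in aged heart 84% (18884 genes). The changed genes were drawn only from genes above a minimum mean count, so these shares do not cover genes with few counts.

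For the kidney, titles and treatment fields contradict each other, the titles were followed, and the exchanged groups were tried after seeing the data. The members and lists were chosen with earlier results of these data known. Named were all 8 members in each comparison and, from each list, genes past the adjusted test or, with none, at most 2 with the smallest unadjusted p if under 0.01, and for likeness 3 genes per member with at least 1 CPM. One kidney gene that this rule names is not reported here.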

Additional observations from a re-analysis of the deposited data

Results flagged for a closer look

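Gdnf was at 8.22 CPM in 1 littermate vehicle library, a gap to the other libraries of its group of 0.858 of the whole range. It was the only 1 of 80 gene and group pairs to stand out so, where chance gives about 1 in 20.

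The Cmpd60 response of Gfra1 differed between kidney and heart by 0.77 on the log2 scale and that of Ret by -1.19, both at an unadjusted p under 0.05 and neither after adjustment. With the kidney groups exchanged, as the treatment field of the labels has them, these differences were 0.09 and 0.91. The Cmpd60 response of Ret differed between APPSWE mice and littermates by 0.46 (unadjusted p = 0.0496, adjusted p = 0.978 in edgeR).

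In the APPSWE brain of unclear treatment, Ntf3 was at 4.20 CPM and Ntrk2 at 799.9 CPM, above all 5 littermate vehicle libraries and within the range of the APPSWE vehicle libraries, which reached 4.66 and 802 CPM.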

How the results depend on the processing

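The number of members called did not change under any alternative run for the Cmpd60, genotype and interaction comparisons, where it stayed at 0, while for tissues the calls of single genes moved as given here. No direction that had passed the adjusted test turned among 1926 recomputed member values, and 105 values that had passed no test changed sign, 68 of them in fits with 1 library left out. For kidney against heart, Ntrk2 did not pass with limma-voom (-0.72, adjusted p = 0.223) and Ntrk3 did (1.18, adjusted p = 0.0236), and Gdnf between brain and heart passed with limma-voom (adjusted p = 0.0458) and RLE size factors (1.18, adjusted p = 0.0374); the cause was not tested. Counts over all genes in the aged brain ran from 0 with genes detected as a covariate to 401 with DESeq2, against 5, in the kidney from 20 to 429 against 62, and in the heart from 36 to 746 against 229. For Cmpd60 in APPSWE mice they ran from 0 to 16, in littermates from 0 to 4 and for the interaction from 0 to 4, each against 0, for genotype under vehicle from 1 to 21 against 2 and under Cmpd60 from 0 to 5 against 0. With the APPSWE brain of unclear treatment as a vehicle or a Cmpd60 mouse, 0 members were called. No paired analysis was possible because the library numbers are not shared between groups and the labels do not tie tissues to mice. With the kidney groups exchanged, every Cmpd60 difference in kidney changed sign, 0 of 8 members were called for it and the same numbers, 8 and 5, for brain and heart against kidney, and the Ret difference between kidney and heart turned from -1.19 to 0.91 and that between brain and kidney from 0.85 to -1.25, none of them past the adjusted test. Counts were low for Gdnf in kidney, heart and the APPSWE cohort and for Ret in kidney, each with libraries at 0 or 1 count.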

Other observations

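In the APPSWE brain of unclear treatment, which entered no comparison, the other members were at 19.7 CPM for Bdnf, 216 CPM for Ntrk3, 4.46 CPM for Ngfr, 49.0 CPM for Gfra1 and 45.8 CPM for Ret, and Gdnf had no count there.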
